A study of Mus musculus with 10 samples.

Results

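The comparison described here asks whether a gene answered a siRNA against Cbx3 differently in mouse embryonic stem cells (ESCs) and in the cells derived from them that the labels call NPCs (neural progenitor cells). Its measure, the interaction, is the change in NPCs minus the change in ESCs, each on the scale of log2(RPKM + 1), where RPKM is a read density, corrected for transcript length and for library size. All genes with an RPKM of at least 1 in at least 2 of the 8 libraries were included, which gave 11862 genes of the 24448 in the deposited table. Every library came from the ESC line V6.5. ESCs were grown on irradiated mouse embryonic fibroblasts with leukemia inhibitory factor. For NPCs, embryoid bodies were formed for 4 days and then dissociated and plated in ITSF medium. The 4 groups of 2 libraries were ESCs with a control siRNA against luciferase, ESCs with the Cbx3 siRNA, NPCs with the control siRNA and NPCs with the Cbx3 siRNA. NPCs received siRNA on day 5 and were collected for RNA on day 8. A time for ESCs is not given separately in the labels. A further pair of NPC libraries, with a siRNA against Med26, took no part in the interaction.

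Cbx3 encodes HP1 gamma, a small protein whose chromodomain binds methylated lysine 9 of histone H3. HP1 proteins recruit the enzymes that place this mark and so help to keep heterochromatin silent, and HP1 gamma is also found along transcribed genes. In neural differentiation of ESCs, pluripotency genes are shut off and neural genes are turned on, while genes of other lineages stay low. The title of the series names the upkeep of lineage specificity by Cbx3 in this process.

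The cells were checked against their labels. Esrrb and Klf4, factors of naive pluripotency, were at 0.913 to 1.40 and at 0.352 to 0.458 RPKM in the 4 NPC libraries and at 13.7 to 58.0 and at 6.45 to 25.4 RPKM in the 4 ESC libraries. Pou5f1 and Nanog, the core pluripotency factors, were still at 484 and 497 RPKM and at 24.3 and 23.5 RPKM in NPC control. Both genes lay within their ESC control ranges there, and for Pou5f1 that range was 308 to 536 RPKM. The neural markers were mixed. Nes was at 33.4 to 34.9 RPKM in NPC control against 6.35 to 15.4 RPKM in ESC control. Pax6 was at 3.39 to 3.42 against 0.704 to 2.07 RPKM, and Sox1 at 8.29 to 9.22 against 5.5 to 5.52 RPKM. Sox2 went the other way, at 29.6 to 29.9 RPKM in NPC control against 72.1 to 131 RPKM in ESC control. Zic1 (at most 0.273 RPKM) and Hes5 (at most 0.353 RPKM) were near 0 in all 8 libraries. The ESC replicates stood apart from each other in both groups. The epithelial keratin gene Krt8 was at 4.59 and 40.7 RPKM in ESC control replicates 1 and 2, and at 6.30 and 95.7 RPKM after the Cbx3 siRNA. Ribosomal protein genes summed to 12874 and 26843 RPKM in ESC control replicates 1 and 2, and to 12785 and 27067 RPKM after the Cbx3 siRNA. In NPC control they summed to 13418 and 14306 RPKM. One RefSeq accession without a symbol reached 13661.7 RPKM in ESC Cbx3 siRNA replicate 1 and 4019.92 to 5730.3 RPKM in the other 7 libraries. The median RPKM of the genes tested was 7.15 to 7.60 over these 8 libraries.

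The target itself fell in both cell types. Cbx3 was at 13.99 and 56.4 RPKM in ESC control and at 1.01 and 1.96 RPKM after the siRNA, and at 9.37 and 9.65 RPKM in NPC control and at 0.425 and 0.248 RPKM after the siRNA. No siRNA library overlapped the controls of its cell type. The log2 change was -3.59 in ESCs (adjusted p = 0.0137) and -2.98 in NPCs (adjusted p = 0.00600). The interaction was 0.61 (95% interval -0.32 to 1.54) and did not pass (adjusted p = 0.611). Its value was 1.30 without ESC replicate 1 and -0.08 without ESC replicate 2, and -0.27 with a pseudocount of 0.1. Cbx3 has 6 named pseudogene copies, which can share reads with it.

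Several large falls were shared by both cell types. Ehmt2, which encodes the H3K9 methyltransferase G9a, was at 55.0 and 35.1 RPKM in ESC control and at 18.6 and 10.2 RPKM after the siRNA, and went from 31.8 and 30.8 to 10.3 and 10.1 RPKM in NPCs. Its changes were -1.60 in ESCs (adjusted p = 0.000855) and -1.53 in NPCs (adjusted p = 0.00115), and the interaction was 0.07 (95% interval -0.16 to 0.29). Erlin2, which encodes a protein of the endoplasmic reticulum, went from 11.8 and 15.4 to 6.66 and 7.06 RPKM in ESCs and from 17.7 and 18.6 to 6.97 and 6.51 RPKM in NPCs. Both changes passed, and the interaction of Erlin2 was -0.42 (95% interval -0.72 to -0.12, adjusted p = 0.355). Rptor, the gene of the mTOR complex 1 subunit raptor, fell by 0.87 in ESCs and by 1.02 in NPCs on the log2 scale, and the septin gene Septin2 fell by 0.82 and by 0.90. Their interactions were -0.15 (95% interval -0.47 to 0.17) and -0.08 (95% interval -0.28 to 0.11). Without ESC replicates 1 and 2 the interaction was 0.15 and -0.02 for Ehmt2, -0.03 and -0.27 for Rptor and -0.01 and -0.16 for Septin2. Erlin2, Rptor and Septin2 were added to the named genes after their values were seen.

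These transcripts hold the 7 bases GAGAGTT, a sequence that an earlier look at the same changes had singled out as frequent in transcripts lowered by this siRNA. The sites are shown because these genes fell in both cell types and are the ones described above. Capitals mark the 7 bases, each line reads 5′ to 3′ on the transcript, and positions are in GRCm38 (GENCODE M21), on the plus strand, while the authors' build is mm9. The site of Cbx3 is coding, in exon 5 of 6, at chr6:51481794-51481800. That of Ehmt2 is coding and spans the junction of exon 2 of 27 with the next exon, so that chr17:34899249-34899361 includes the intron. The other 4 sites lie in the 3′ UTR in the last exon: chr8:27036811-27036817 and chr8:27037149-27037155 for Erlin2, chr11:119899319-119899325 for Rptor and chr1:93508377-93508383 for Septin2.
Cbx3: agacagcagcgGAGAGTTaatgtttctca
Ehmt2: ggagccgccgaGAGAGTTcatagctcttt
Erlin2, first site: gagagcagatgGAGAGTTgttttttgggt
Erlin2, second site: gtggattacttGAGAGTTaagctgtcttg
Rptor: tttaccaaaatGAGAGTTgaaaggactga
Septin2: gtagaacagaaGAGAGTTatctaatgaga

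The sequence was found in the transcripts of 2143 of 11678 genes searched on the transcript strand (18.4%). It was in 55.0% of the 109 genes that fell in both cell types and in 7.14% of those that rose in both. Among genes with an unadjusted interaction p under 0.05, it was in 12.7% of those with the higher response in NPCs and in 16.3% of those with the lower, against 18.9% of the other genes. Genes with the sequence had a median change of -0.04 in NPCs and of -0.08 in ESCs, and a median interaction of 0.03, against 0.02, -0.01 and 0.04 for genes without it. Median transcript length was 4050 bases with the sequence and 2536 without it. It was 2989 bases for genes that fell in both cell types and 2051.5 for those that rose in both. For the higher, the lower and the other interactions it was 2654, 2044 and 2793 bases. A longer transcript has more places for 7 bases, and the shares were not corrected for length. Because the sequence was picked on these same changes, its share among the genes that fell is a description only. No siRNA sequence was given in the sources used, so none was compared with the sites.

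No gene's interaction passed an adjusted p of 0.05 (limma, 0 of 11862, or 0%). The smallest adjusted p was 0.145. At an unadjusted p under 0.05 there were 1243 genes (10.5%), 840 with a higher response in NPCs (7.08%) and 403 with a lower one (3.4%). When each library was centred on its median these counts were 680 higher and 669 lower, and they were 686 and 654 after quantile normalization, so the excess of higher responses depended on the scaling. The median interaction over all genes was 0.03 and the median standard error 0.12. An interaction of at least 0.5 in size was seen in 443 genes, 327 higher and 116 lower, and one of at least 1 in 46 genes, 27 higher and 19 lower. The count of interactions past the threshold depended on which ESC replicate was kept: it was 9 without either ESC library of replicate 1, and 979 without ESC control replicate 2 or 981 without ESC Cbx3 siRNA replicate 2. The fits without ESC replicate 1 and without ESC replicate 2 share the same NPC pairs. Their interactions therefore agree in sign in part by construction, and such agreement does not measure whether the ESC replicates agree. With 1 ESC pair left, the spread came from the NPC pairs alone, and the ESC pair was assumed to vary like them. Genes called in NPCs then numbered 3557 to 3567, and those called in ESCs 698 to 960. In a fit that also held the Med26 siRNA libraries 6 genes passed: Ier3, Tgm1, Mir677, S100a6, Mir3064 and Nanog.

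**Figure D1:**
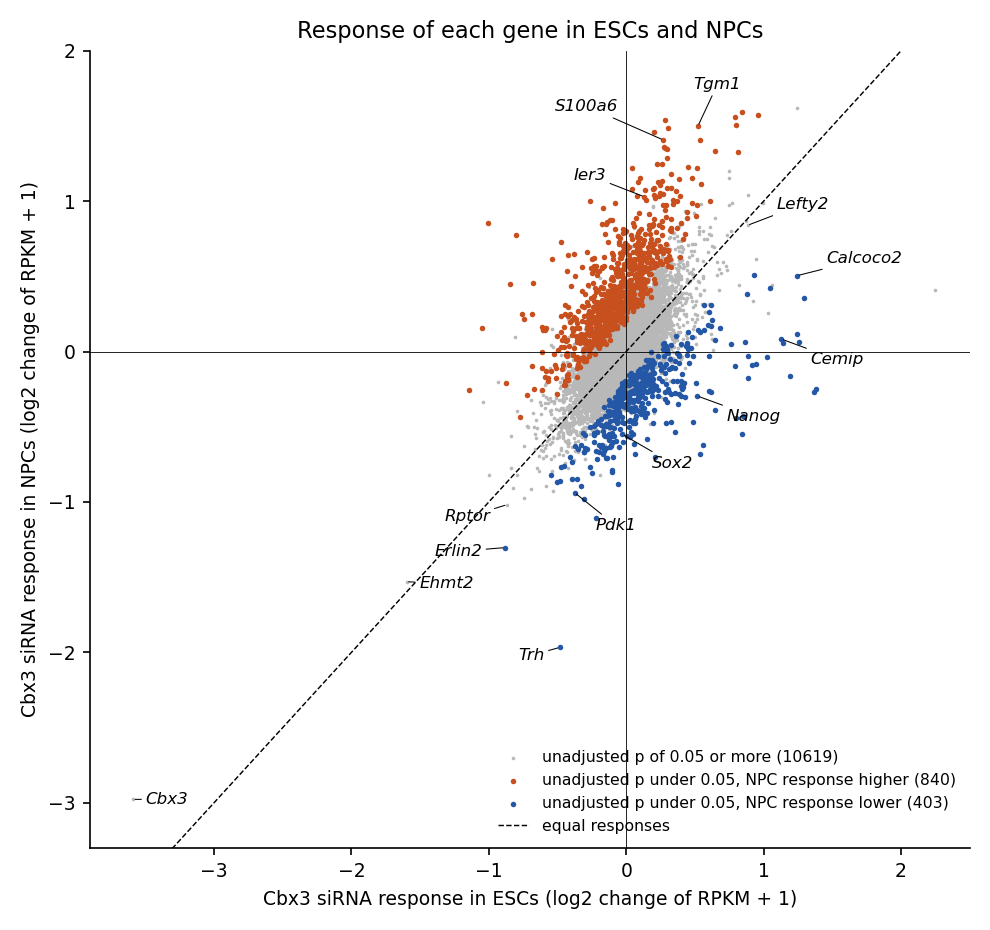
Change after Cbx3 siRNA in ESCs (x axis) and in NPCs (y axis), log2 of RPKM + 1, for 11862 genes, each point 1 gene, with the mean of 2 replicates of siRNA minus control. Cbx3 and Ehmt2 lie at the lower left near the dashed line of equal responses, and the 840 genes in orange and 403 in blue lie off it at an unadjusted p under 0.05, none of which passed adjustment.

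Changes in the separate cell types were called more often. In NPCs 1593 genes passed (13.4%), 856 higher (7.22%) and 737 lower (6.21%), and in ESCs 239 genes passed (2.01%), 81 higher (0.683%) and 158 lower (1.33%). At an unadjusted p under 0.05 there were 3706 genes in NPCs (31.2%, with 16.5% higher and 14.7% lower) and 2514 in ESCs (21.2%, with 7.93% higher and 13.3% lower). Both counts of genes that passed came to 0 without the replicate block and to 0 without the filter on low values (limma, 1063 and 4353 genes in NPCs and 483 and 3018 in ESCs at an unadjusted p under 0.05). They also fell to between 4 and 14 in NPCs and to between 52 and 54 in ESCs when an NPC library was left out. A gene called in 1 cell type and not in the other is therefore not shown to differ between them.

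Of the genes called in both, 57 rose and 109 fell in both, and 2 went opposite ways, Nanog and Mir677. These 168 genes were 10.5% of the NPC calls and 70.3% of the ESC calls, and both tests take each gene's spread from the same fit. For 146 of the 166 genes that moved the same way, the 95% interval of the interaction held 0. Over all genes tested the interval left out 0 in only 10.5%, so this count does not set these genes apart. The 856 genes that rose in NPCs had a median change of 0.19 in ESCs, and 87.9% of them lay above 0 there. The 737 that fell in NPCs had a median of -0.25 in ESCs, and 95.3% lay below 0. Among all genes tested, 43.2% lay above 0 in ESCs. Across genes the changes in both cell types had a Pearson r of 0.565 (0.558 without Cbx3), a description over genes that share libraries. The response of ESC replicate 2 had an r of 0.624 and 0.610 with those of NPC replicates 1 and 2, and the response of ESC replicate 1 had an r of 0.259 with each. The genes that rose in NPCs had a median of 0.08 in ESC replicate 1 and of 0.28 in ESC replicate 2, while those that fell had -0.21 and -0.28.

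Lefty2 and Car2 were among the genes that rose in both. Lefty2, a Nodal antagonist, was at 28.9 and 19.6 RPKM in ESC control and 50.3 and 39.9 RPKM after the siRNA, and at 27.4 and 27.8 and then 47.9 and 52.5 RPKM in NPCs. The changes were 0.88 and 0.84 and the interaction -0.04 (95% interval -0.28 to 0.19). Car2, a carbonic anhydrase gene named after its values were seen, went from 27.2 and 47.5 to 46.2 and 108 RPKM in ESCs and from 65.4 and 67.4 to 196 and 202 RPKM in NPCs. It rose by 0.96 in ESCs and by 1.57 in NPCs, with an interaction of 0.61 (adjusted p = 0.266), or 0.39 and 0.83 without ESC replicates 1 and 2.

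Nanog, Sox2 and several neural progenitor genes were among those with the lower response in NPCs. Nanog was at 44.2 and 18 RPKM in ESC control and at 68.3 and 24.5 RPKM after the siRNA, and at 24.3 and 23.5 and then 20.2 and 18.4 RPKM in NPCs. Within each replicate number it was higher after the siRNA in ESCs, and both NPC siRNA libraries were below both NPC controls. It rose by 0.52 in ESCs (adjusted p = 0.0285) and fell by 0.30 in NPCs on the log2 scale (adjusted p = 0.0375). The interaction was -0.81 (standard error 0.10, 95% interval -1.05 to -0.58, adjusted p = 0.154), or -0.72 and -0.91 without ESC replicates 1 and 2 (adjusted p = 0.0622 and 0.00391). Nanog has 2 named pseudogene copies. In bulk libraries such as these, fewer cells of a type and less RNA per cell cannot be told apart. The other core factor, Pou5f1, did not show this: it fell by 0.32 on the log2 scale in each cell type, with an interaction of 0.00 (95% interval -0.18 to 0.18), which was 0.07 after quantile normalization.

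Sox2, a factor of both pluripotent and neural progenitor cells, was at 131 and 72.1 RPKM in ESC control and at 126 and 72.1 RPKM after the siRNA. In NPCs it went from 29.6 and 29.9 to 19.11 and 20.9 RPKM. The NPC groups did not overlap, and the ESC values hardly moved within a replicate number. Its change was -0.55 in NPCs (adjusted p = 0.00636) and -0.03 in ESCs, and the interaction was -0.52 (standard error 0.08, adjusted p = 0.183). Sox1, a marker of early neural progenitors, went from 9.22 and 8.29 to 5.23 and 4.71 RPKM in NPCs and was at 5.52 and 5.5 and then 4.95 and 4.81 RPKM in ESCs, an interaction of -0.56 (adjusted p = 0.234). Pax6, the neural and eye factor, fell by 0.98 in NPCs on the log2 scale and had a change of -0.31 in ESCs, where it was at most 2.07 RPKM. Its interaction was -0.67 (adjusted p = 0.295). For Dll1, a Notch ligand, and Msi1, an RNA-binding protein of progenitors, the interactions were -0.57 and -0.82, and both fell in NPCs. The value of Msi1 was -0.54 and -1.11 without ESC replicates 1 and 2. Nes, the progenitor intermediate filament gene, had one of 0.15 (95% interval -0.09 to 0.39), or 0.08 and 0.22 without those replicates.

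The neural progenitor list had 20 of 32 members tested, with 2 interactions at an unadjusted p under 0.05 above 0 and 6 below, and a median of -0.04. Over all genes tested, 7.08% lay above and 3.4% below, with a median of 0.03. In NPCs 2 of its members rose and 9 fell, and in ESCs none rose and 1 fell. Of all genes, 7.22% rose and 6.21% fell in NPCs, and 0.683% rose and 1.33% fell in ESCs. All 29 members of the naive pluripotency list were tested. None of its interactions lay above 0 at an unadjusted p under 0.05, and 6 lay below, beside 7.08% and 3.4% of all genes, with a median of -0.12. After median centring all genes had 680 above and 669 below. Beside Nanog and Sox2 these included Zfp42, known as Rex1 (-0.33), and the T-box factor Tbx3 (-0.52). Tbx3 was at 2.14 and 0.852 RPKM in ESC control and 4.64 and 1.66 RPKM after the siRNA, and at most 0.547 RPKM in NPCs. It rose in ESCs (0.68, adjusted p = 0.0391), as did Fgf4, the main FGF ligand of ESCs (0.37, adjusted p = 0.0372), which had an NPC change of -0.01 and an interaction of -0.38. Esrrb had an interaction of -0.01, which was 0.11 and 0.04 with pseudocounts of 0.1 and 0.5 and 0.04 with the rows of a gene summed, and Klf4 one of -0.29 (adjusted p = 0.480). The median of the naive pluripotency list was -0.11 without ESC replicate 1 and -0.05 without ESC replicate 2, and that of the neural progenitor list -0.05 in both. In the primed epiblast list (16 of 17 tested) 1 interaction lay above 0 and 2 below at an unadjusted p under 0.05, with a median of -0.06. Of its members, 8 fell in NPCs and 3 in ESCs, and none rose in either. Dnmt3b, the de novo DNA methyltransferase, fell by 0.76 in NPCs and by 0.45 in ESCs on the log2 scale, with an interaction of -0.31. Neuron genes (12 of 24 tested, median 0.13) had 3 higher and 1 lower. The higher ones were the stathmin genes Stmn4 (1.19) and Stmn2 (0.40) and Gap43 (0.41), and the lower one the tubulin gene Tubb3 (-0.59). Stmn4 went from 1.65 and 1.76 to 5.56 and 7.78 RPKM in NPCs, and its interaction was 0.95 and 1.43 without ESC replicates 1 and 2. Without ESC replicates 1 and 2 Tubb3 was at -0.24 and -0.94, and the median of the list at 0.06 and 0.15. Of 4 glial genes tested (14 listed), none lay above 0 and 1 below, with a median of -0.10.

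**Figure D2:**
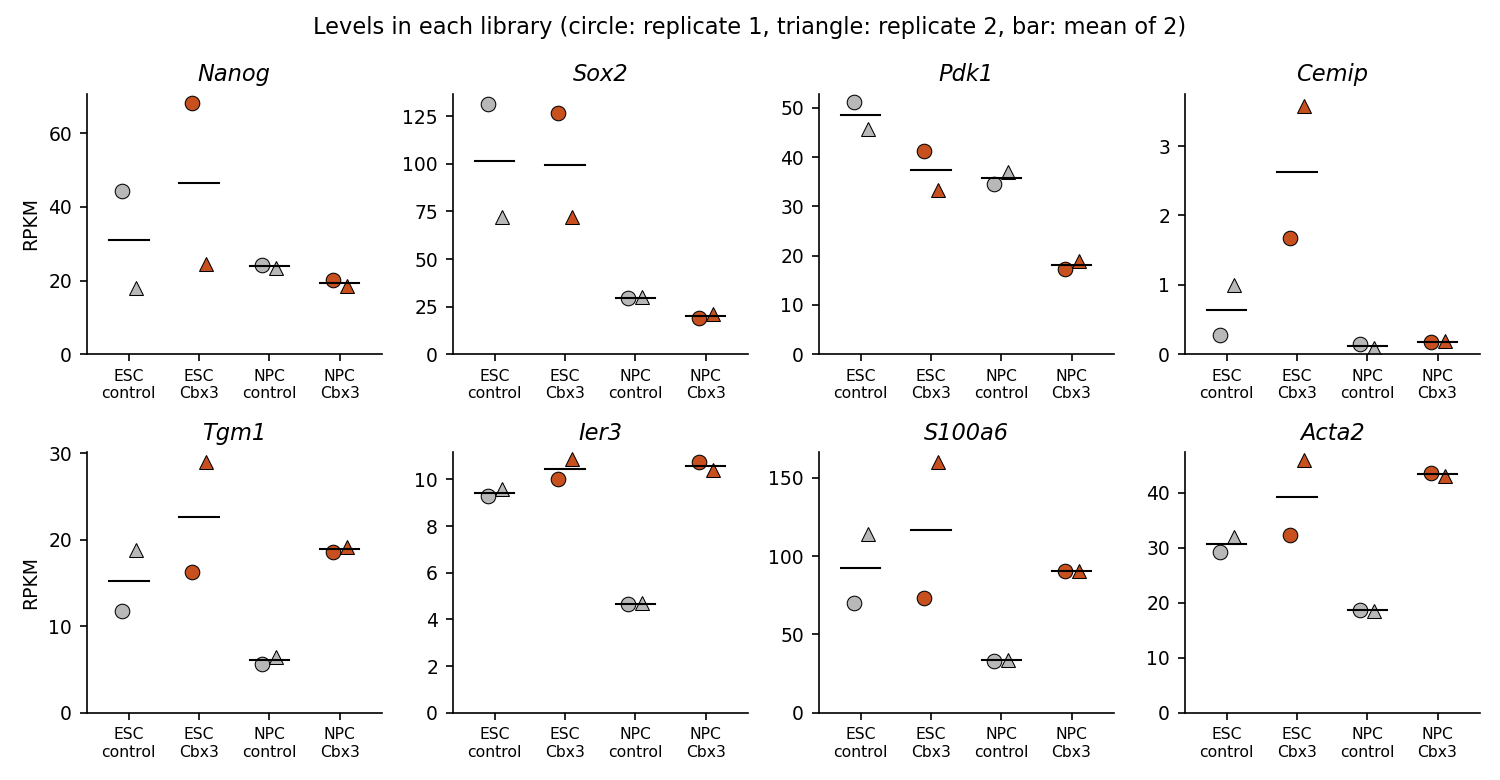
RPKM of 8 genes in each of the 8 libraries (y axes from 0), controls in grey and Cbx3 siRNA in orange, circles for replicate 1, triangles for replicate 2 and bars for the mean of 2. Sox2 and Pdk1 are lower after the siRNA in NPCs, Nanog and Cemip higher after it in ESCs within each replicate number, and Tgm1, Ier3, S100a6 and Acta2 start lower in NPC control than in ESC control and reach 18.6, 10.4, 90.5 and 43.1 RPKM or more in NPCs after it.

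Tgm1, Ier3, S100a6 and Acta2 were among the genes with the higher response in NPCs. Tgm1, a transglutaminase of the cornified envelope, was at 11.7 and 18.8 RPKM in ESC control and 16.3 and 29.0 RPKM after the siRNA, and went from 5.67 and 6.43 to 18.6 and 19.15 RPKM in NPCs. It rose by 0.52 in ESCs (adjusted p = 0.0319) and by 1.5 in NPCs (adjusted p = 0.00126). The interaction was 0.98 (standard error 0.10, 95% interval 0.73 to 1.23, adjusted p = 0.145). Ier3, an immediate early gene of stress and survival, was at 9.29 and 9.58 and then 9.997 and 10.9 RPKM in ESCs, and at 4.66 and 4.69 and then 10.8 and 10.4 RPKM in NPCs. The NPC groups lay far apart, and after the siRNA NPCs stood at the ESC level. Its change was 0.13 in ESCs (adjusted p = 0.347) and 1.03 in NPCs (adjusted p = 0.00343), with an interaction of 0.90 (standard error 0.10, adjusted p = 0.154).

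S100a6, a small calcium-binding protein gene, was at 70.3 and 114 RPKM in ESC control and at 73.0 and 160.0 RPKM after the siRNA, and went from 33.1 and 33.9 to 90.7 and 90.5 RPKM in NPCs. In ESCs the groups overlapped, and the response was 0.05 in replicate 1 and 0.48 in replicate 2. The NPC change was 1.41 (adjusted p = 0.00343) and the interaction 1.14 (standard error 0.14, adjusted p = 0.154). It was 0.92 without ESC replicate 1 (adjusted p = 0.0184) and 1.35 without ESC replicate 2 (adjusted p = 0.00209). Acta2, smooth muscle actin, was at 29.2 and 32.1 and then 32.3 and 46.1 RPKM in ESCs, and at 18.7 and 18.5 and then 43.6 and 43.1 RPKM in NPCs. Its interaction was 0.85 (standard error 0.13, adjusted p = 0.183). It was 0.67 and 1.04 without ESC replicates 1 and 2, with adjusted p = 0.0610 and 0.00331.

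The 14 genes of smallest p with a higher response in NPCs had an adjusted p of 0.145 to 0.183, so none passed. All 14 rose in NPCs and 2 of them passed in ESCs. In both directions together, all 28 genes had both NPC pair responses on 1 side of both ESC pair responses, as did 43.8% of all genes. For such genes the sign of the interaction cannot change when either ESC replicate is left out. Without ESC replicate 1, 1 of the 14 higher and 2 of the 14 lower passed, and without ESC replicate 2 all 14 and 14 did. In 8 of the 14, both NPC control libraries lay below both ESC control libraries, and in 3 above. Among the genes more abundant in ESC control were Emp3, a membrane protein gene of the PMP22 family, at 5.59 and 7.24 RPKM there, 3.53 and 5.62 RPKM after the siRNA, and 1.99 and 1.75 and then 3.81 and 3.15 RPKM in NPCs (interaction 1.07), and the EGF receptor ligand gene Hbegf (0.81). Ltb, lymphotoxin beta, went from 1.71 and 1.71 to 5.64 and 6.27 RPKM in NPCs and was at 0.570 to 2.24 RPKM in ESCs (1.08). Tinagl1, a matricellular protein gene (1.26), Wnt4, a Wnt ligand gene (1.04), Septin4 (1.04) and Loxl4, a lysyl oxidase (1.03), were below 5 RPKM in all ESC libraries. Septin4 reached 1 RPKM only in the NPC Cbx3 siRNA libraries (2.04 and 2.82 RPKM), so it passed the filter through the group where it is high. Romo1, a mitochondrial membrane protein gene that overlaps Nfs1, had an interaction of 0.74. Mir677 (1.86) and Mir290b (1.57) lie under 120 bases in length, at 0 in both NPC controls and at 0 to 2.13 RPKM elsewhere, and overlap Atp5b and Mir290a with Nlrp12. The use of strand is not stated, so their reads cannot be told apart from those of the overlapping genes.

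The 14 genes of smallest p with a lower response in NPCs had an adjusted p of 0.145 to 0.221, and 8 passed in NPCs and 7 in ESCs. Cemip, which encodes a hyaluronan-binding protein, was at 0.282 and 0.994 RPKM in ESC control and 1.67 and 3.58 RPKM after the siRNA, and at most 0.192 RPKM in NPCs. It rose in ESCs (1.13, adjusted p = 0.0137), with an interaction of -1.05 (standard error 0.14, adjusted p = 0.183). Spink1, a serine protease inhibitor gene, was 5.04 and 7.30 and then 10.5 and 13.9 RPKM in ESCs and at most 0.947 RPKM in NPCs (-0.92). Pdk1, the pyruvate dehydrogenase kinase gene, fell in both cell types: from 51.2 and 45.7 to 41.2 and 33.4 RPKM in ESCs and from 34.6 and 36.9 to 17.4 and 18.98 RPKM in NPCs. The changes were -0.37 and -0.94 and the interaction -0.57 (standard error 0.09, adjusted p = 0.183). Ddt, D-dopachrome tautomerase (-0.51), Tsacc, a chaperone cofactor gene (-0.67), Msantd3 (-0.54) and 1190007I07Rik (-0.63) fell in NPCs and did not pass in ESCs. The other 5, Mir3064 (-1.63), Mir1839 (-1.64), Snord8 (-1.24), Snord12 (-1.03) and Mir8114 (-0.57), are under 120 bases long and overlap Ddx5, 2900076A07Rik, Chd8, Zfas1 and Glul. Cemip, Mir3064 and Mir1839 reached 1 RPKM only in the ESC Cbx3 siRNA libraries, so they passed the filter through the group where they are high. Outside these 28 genes, Trh, the thyrotropin-releasing hormone gene, fell in NPCs from 50.4 and 55.5 to 12.9 and 12.7 RPKM, and its ESC replicates disagreed (110.1 and 36.9 RPKM in control, 127 and 15.9 RPKM after the siRNA). The interaction of Trh was -1.48 (standard error 0.38, adjusted p = 0.302), or -0.80 and -2.17 without ESC replicates 1 and 2. Calcoco2, an autophagy receptor gene, rose by 1.24 in ESCs and by 0.50 in NPCs, an interaction of -0.74 (adjusted p = 0.236).

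**Figure D3:**
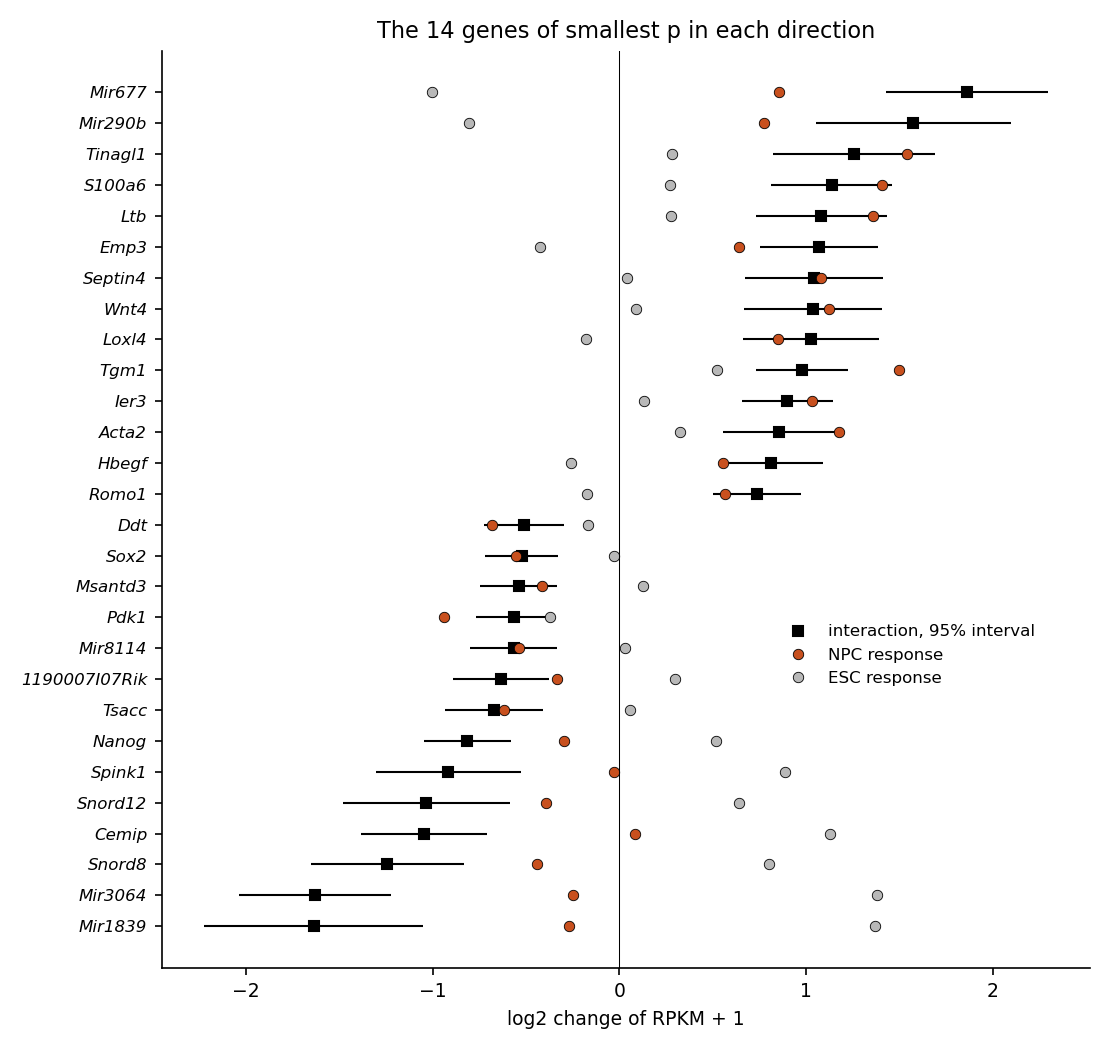
Interaction with its 95% interval (black squares and lines), NPC response (orange) and ESC response (grey), log2 of RPKM + 1, for the 14 genes of smallest unadjusted p in each direction. All 28 intervals lie away from 0, which follows from the choice by smallest p, and none of the 28 passed adjustment, with adjusted p from 0.145 to 0.221. Tgm1, S100a6 and Acta2 lie above 0 in both cell types, and Nanog lies below 0 in NPCs and above it in ESCs.

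Over gene lists, the S100, annexin and galectin genes had the highest median interaction. They encode calcium- and membrane-binding proteins and secreted lectins, and the list also holds the transglutaminases Tgm1 and Tgm2. All 21 members were tested, 14 had a higher response in NPCs at an unadjusted p under 0.05 and none a lower one, beside 7.08% and 3.4% of all genes, and the median interaction was 0.52. In NPCs 12 rose, where 7.22% of all genes did, and none fell. In ESCs 1 rose, where 0.683% of all genes did, and none fell. The median response was 0.75 and 0.68 in NPC replicates 1 and 2, 0.41 in ESC replicate 2 and -0.03 in ESC replicate 1. Anxa1, annexin A1, went from 7.64 and 7.63 to 20.1 and 22.1 RPKM in NPCs and was at 16.2 and 29.3 and then 15.9 and 44.7 RPKM in ESCs (interaction 1.07, adjusted p = 0.209). For Lgals1, galectin 1, the interaction was 0.52, and for S100a4, a fibroblast gene that was at 27.2 to 34.4 RPKM in ESCs and 1.13 to 2.5 RPKM in NPCs, it was 0.48, or 0.67 and 0.29 without ESC replicates 1 and 2. The list's median was 0.38 without ESC replicate 1 and 0.62 without ESC replicate 2.

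The trophoblast, simple epithelium, muscle and primitive streak lists had median interactions above the 0.03 of all genes, and their counts stand beside 7.08% higher and 3.4% lower over all genes at the same p. Of 10 trophoblast genes tested (21 listed), 5 had a higher and 1 a lower response in NPCs, with a median of 0.49. In NPCs 8 of the 10 rose, and in ESCs 1 did, with a median change of 0.78 and of 0.54. Of all genes, 7.22% rose in NPCs and 0.683% in ESCs. The lower one was Tfap2c (-0.57, or -0.36 and -0.78 without ESC replicates 1 and 2), which rose in ESCs. The simple epithelium list had 27 of 28 members tested, 8 higher and none lower, with a median of 0.23. Krt8 went from 59.4 and 62.6 to 168 and 183 RPKM in NPCs, and its interaction was 0.71 (adjusted p = 0.379), or 0.30 and 1.13 without ESC replicates 1 and 2. Its partner Krt18 had one of 0.45 (95% interval -0.18 to 1.07), which was -0.02 without ESC replicate 1 and 0.92 without ESC replicate 2. Krt7 had 0.87, Krt19 0.87 and the tight junction gene Cldn4 0.67. Krt19 had 0.39 and 1.34, and Cldn4 0.32 and 1.01, without ESC replicates 1 and 2. Muscle and contractile genes (18 of 22 tested, median 0.20) had 8 higher and none lower, among them the actin gene Actg2 (0.71), cardiac troponin Tnnc1 (0.86) and tropomyosin Tpm1 (0.46, or 0.29 and 0.63 without ESC replicates 1 and 2). In NPCs 7 of them rose, and in ESCs none passed. Of 6 primitive streak and mesoderm genes tested (23 listed), 4 were higher and none lower, with a median of 0.42. They include the T-box factors Eomes (0.60) and T (0.43) and the ligand gene Wnt3 (0.42). T was at most 0.285 RPKM in ESCs and went from 2.21 and 2.21 to 2.76 and 3.62 RPKM in NPCs, so it passed the filter through NPC libraries alone. The trophoblast and simple epithelium lists share Krt7, Krt8 and Krt18, so their counts are not independent. Without ESC replicates 1 and 2 the medians were 0.23 and 0.63 for trophoblast, 0.15 and 0.29 for simple epithelium, 0.12 and 0.32 for muscle and 0.38 and 0.41 for primitive streak genes. Trophoblast-defining Cdx2, Elf5, Hand1 and Plac1 were under 1 RPKM in all 8 libraries, and Tpbpa and Prl3d1 were listed at 0. The summed level of the trophoblast list was 33.6 to 118 and 45.7 to 261 RPKM in ESC control and after the siRNA, and 210.0 to 220 and 509 to 546 RPKM in NPCs. For simple epithelium genes these sums were 493 to 709, 454 to 848, 1047 to 1047 and 1435 to 1464 RPKM. For muscle genes they were 299 to 580, 264 to 611, 1287 to 1304 and 1467 to 1515 RPKM, and for primitive streak genes, of which 16 of 23 were under 1 RPKM in all 8 libraries, 7.71 to 11, 6.6 to 7.84, 19.6 to 21.4 and 26 to 26.9 RPKM.

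The fibroblast feeder list (24 of 29 tested) had 8 higher and none lower, beside 7.08% and 3.4% of all genes, with a median of 0.24. In NPCs 11 of its members rose and 1 fell, beside 7.22% and 6.21% of all genes. In ESCs 1 rose and 1 fell, beside 0.683% and 1.33% of all genes. Thbs1, thrombospondin 1, had an interaction of 0.81 (1.11 and 0.50 without ESC replicates 1 and 2) and Col3a1, a fibrillar collagen gene, one of 0.87. The summed level of the list was 251.6 to 266.2 RPKM in NPC control and 346.5 to 362.5 RPKM after the siRNA, and 264.9 to 437.7 and 303.6 to 541.9 RPKM in ESCs. Twist2, Prrx1, Lum and Dcn of this list were under 1 RPKM in all 8 libraries. The part of feeder cells in these results was not tested. Extracellular matrix and adhesion genes (32 of 33 tested, median 0.19) had 10 higher and 1 lower, among them the integrin gene Itga5 (0.69) and the laminin genes Lama5 (0.55) and Lamb3 (0.61). The median of the list was 0.12 without ESC replicate 1 and 0.19 without ESC replicate 2.

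The interaction counts of the next lists stand beside 7.08% higher and 3.4% lower over all genes at the same p. Immediate early genes (22 of 25 tested, median 0.21) had 7 higher and none lower. The AP-1 gene Junb went from 16.3 and 16.1 to 27.9 and 30.8 RPKM in NPCs and was at 15.1 and 17.9 and then 13.9 and 22.7 RPKM in ESCs (0.71), and Klf6 had an interaction of 0.49 (0.23 and 0.74 without ESC replicates 1 and 2). The list's ESC replicates differed in sign, with median responses of -0.12 and 0.22. Interferon and MHC class I genes (24 of 38 tested, median 0.16) had 7 higher and 1 lower. Cxcl10, an interferon-induced chemokine gene, went from 1.18 and 0.909 to 5.15 and 4.13 RPKM in NPCs and was at most 1.41 RPKM in ESCs (1.26). The RNA sensor gene Ddx58 had 0.80 and the immunoproteasome genes Psmb8 and Psmb9 had 0.58 and -0.60. Cholesterol synthesis and uptake genes (34 of 35 tested, median 0.16) had 9 higher and 1 lower, with the mevalonate pathway kinase gene Pmvk at 0.38 and the fatty acid desaturase gene Scd1 at 0.74. In NPCs 12 rose and 1 fell, beside 7.22% and 6.21% of all genes, and in ESCs 1 rose, beside 0.683% of all genes. Without ESC replicates 1 and 2 the medians were 0.11 and 0.40 for immediate early genes, 0.16 and 0.26 for interferon and MHC class I genes and 0.08 and 0.23 for cholesterol genes. Wnt pathway genes (27 of 34 tested, median 0.17) had 7 higher and 4 lower: Wnt4 and the target Sp5 (1.07) were higher, and the secreted inhibitors Sfrp1 (-0.55) and Notum (-0.56) lower. BMP pathway genes (14 of 25 tested, median 0.14) had 3 higher and none lower, and of these Id1, a BMP target that encodes an inhibitor of bHLH factors, had the smallest p (0.40). Apoptosis genes (21 of 22 tested, median 0.15) had 4 higher and none lower, and germline genes (14 of 20 tested, median 0.11) 1 and none. FGF and ERK feedback genes (21 of 23 tested, median 0.07) had 4 and 1, with the ERK phosphatase gene Dusp6 at 0.61, imprinted genes (20 of 30 tested, median 0.07) 4 and none, with Peg10 at 1.27, and hypoxia and glycolysis genes (33 of 36 tested, median 0.05) 5 and 4. Without ESC replicates 1 and 2 the medians were 0.10 and 0.12 for the Wnt, 0.10 and 0.19 for the BMP, 0.06 and 0.06 for the apoptosis, 0.07 and 0.16 for the germline, 0.10 and 0.13 for the FGF and 0.01 and 0.03 for the imprinted list. Dusp6 was at 0.28 and 0.95 without these replicates, and Peg10 at 0.80 and 1.74.

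For the remaining lists the counts are again higher and lower interactions at an unadjusted p under 0.05, beside 7.08% and 3.4% of all genes. The median interaction of the HP1, DNA methylation, Polycomb, Mediator, Notch, p53, mTOR, cell cycle, ribosomal protein, Nodal and TGF-beta, endoderm and histone lists had opposite signs without ESC replicate 1 and without ESC replicate 2. HP1 and H3K9 methylation genes (25 of 26 tested, median 0.06) had 1 higher and 1 lower interaction at an unadjusted p under 0.05. The HP1 paralogs Cbx1 and Cbx5 had interactions of -0.09 (95% interval -0.30 to 0.13) and 0.20 (95% interval -0.03 to 0.44), and neither passed in either cell type. Cbx1 had -0.18 and 0.01, and Cbx5 0.08 and 0.33, without ESC replicates 1 and 2. DNA methylation genes (20 of 20 tested, median 0.04) had 2 and 1, Polycomb genes (29 of 33 tested, median 0.02) none and 1, which was the PRC1 ligase gene Rnf2 (-0.27), and Mediator genes (32 of 33 tested, median 0.03) none. Rnf2 fell in both cell types, with a change of -0.82 in NPCs and of -0.55 in ESCs. Ribosomal protein genes (76 of 76 tested, median -0.01) had 1 and 2, oxidative phosphorylation genes (44 of 44 tested, median 0.00) 1 and 2, and cell cycle genes (43 of 44 tested, median -0.01) 3 and 3. Histone genes (29 of 30 tested, median -0.10) had 1 and 1. Their median was 0.04 without ESC replicate 1 and -0.26 without ESC replicate 2. Nodal and TGF-beta genes (29 of 31 tested, median 0.00) had 2 and 2, Notch pathway genes (19 of 26 tested, median -0.01) 2 and 2, p53 targets (29 of 31 tested, median 0.01) 2 and none, mTOR complex and lysosome genes (33 of 33 tested, median 0.04) 1 and 2, and integrated stress response and serine genes (35 of 36 tested, median -0.02) 2 and 3. The stress gene Nupr1 of the latter had an interaction of 0.95 (adjusted p = 0.183), and went from 5.67 and 5.49 to 13.4 and 11.6 RPKM in NPCs. Endoderm genes (13 of 23 tested, median 0.00) had 3 and 1, with Apoe at 0.48 and the endocytic receptor gene Lrp2 at 0.72. The change of Apoe was -0.45 in ESCs and 0.03 in NPCs, and that of Lrp2 -0.43 and 0.30. Of these only the ESC change of Apoe passed. Unfolded protein response (18 of 18 tested, median -0.03), neural crest (6 of 13 tested, median 0.21) and blood and endothelium genes (5 of 18 tested, median 0.13) had none at an unadjusted p under 0.05, nor did the 1 tested gene of the 15 two-cell-like genes (-0.03). The neural crest median was 0.08 without ESC replicate 1 and 0.31 without ESC replicate 2.

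**Figure D4:**
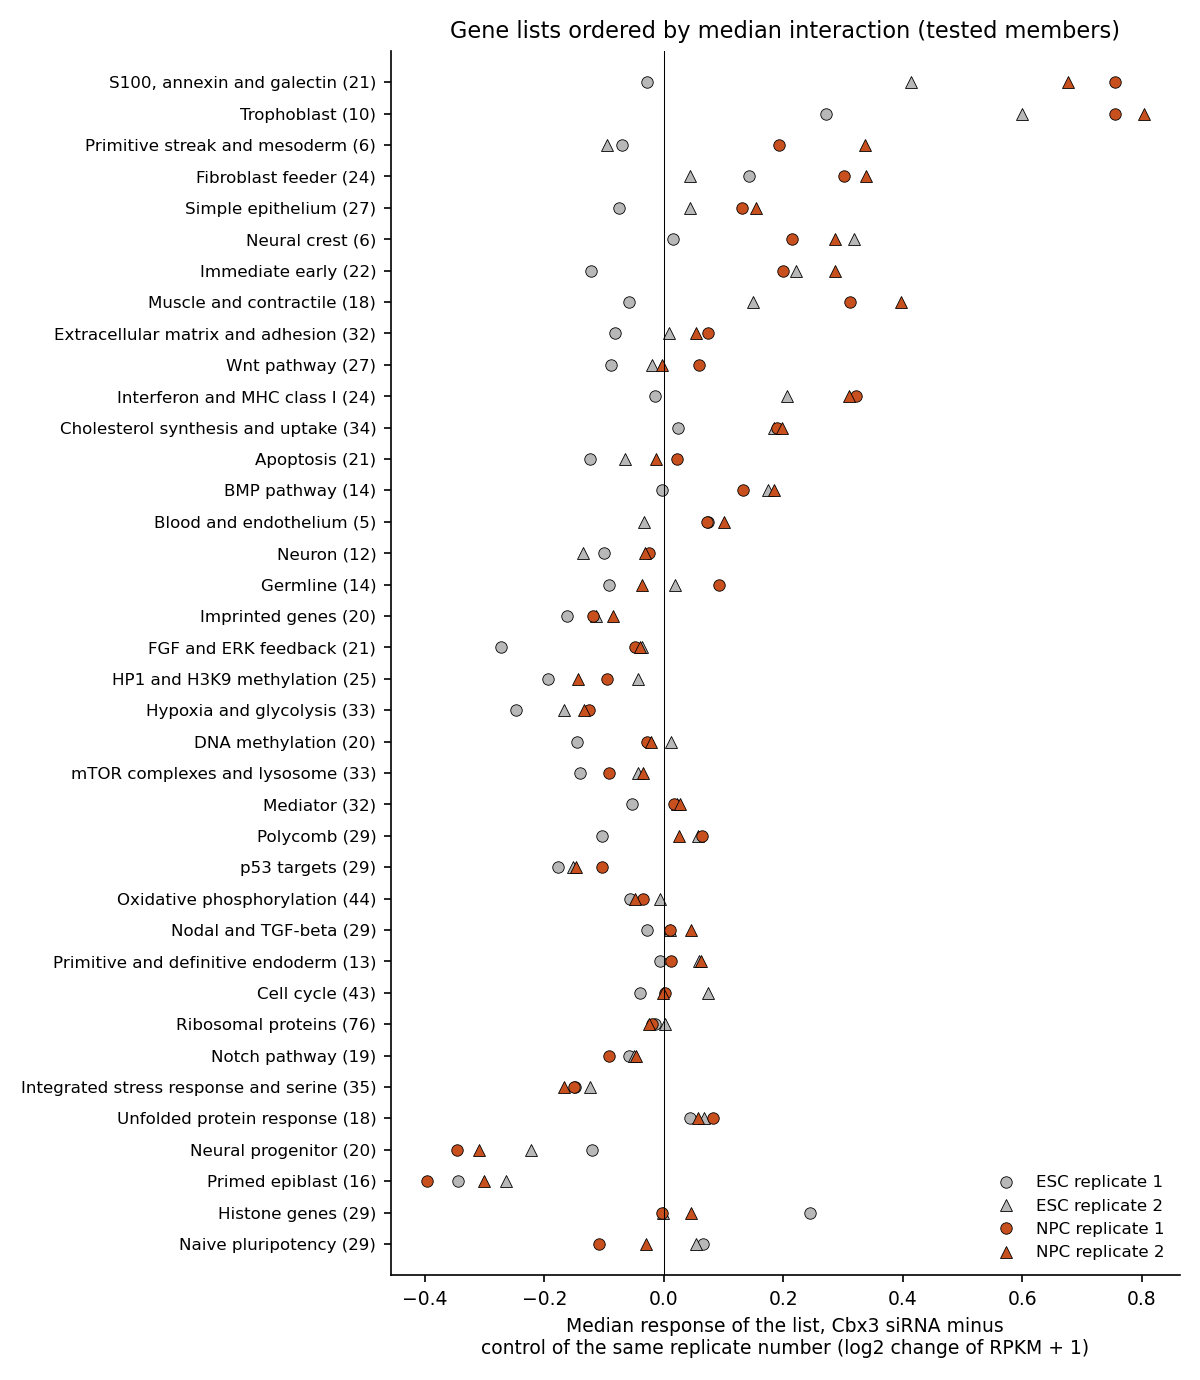
Median response to the Cbx3 siRNA (x axis, log2 of RPKM + 1) of 38 gene lists with at least 5 tested members, ordered by median interaction, for each replicate number in ESCs (grey) and NPCs (orange), with the number of members tested in parentheses. For S100, annexin and galectin genes the NPC medians are 0.75 and 0.68 and the ESC medians -0.03 and 0.41. For immediate early genes the ESC medians are -0.12 and 0.22 and the NPC medians 0.20 and 0.29.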

How the data were processed

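The authors deposited RPKM values for each RefSeq accession in each library, and per the submitters' processing notes TopHat2 2.08 and build mm9 were used. No source used here gives the counting tool, annotation release or use of strand. Per the labels' protocols, RNA was extracted with Trizol and libraries came from a TruSeq RNA kit. Symbols were matched for 99.62% of 35860 rows, from the RefSeq table of GRCm38.p6 and GENCODE M21. GENCODE M21 also gave the transcript sequences and site positions, and the RefSeq table the gene lengths, overlapping genes and pseudogene copies. The row of highest mean stood for a gene with several rows (3761 of those tested).

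Since RPKM is not a count, count tests were not used. Low values fell on steps, and the most frequent ratio of values under 0.1 RPKM to those in NPC control replicate 1 was 0.979 to 1.60 over the 8 libraries, largest in ESC Cbx3 siRNA replicate 1. Whether a step is 1 read or a read pair is unknown, so depth and counting error are not reported.

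The model, in limma 3.58.1 (R 4.3.3) and with an intensity trend, took log2(RPKM + 1) in 8 libraries and had 4 blocks (replicate number within each cell type), the siRNA effect in each cell type and 2 residual degrees of freedom. Tests were two-sided, with Benjamini-Hochberg adjustment over 11862 genes and a threshold of 0.05. This scale understates the change of low genes. A gene can pass the filter only through the group where it is high, which partly sets the sign of its interaction. "Rose" and "fell" mean that the change within a cell type passed. The labels call the 2 replicates a group biological without naming their source, and the p-values reflect no more than the spread among these samples, which may be technical.

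Named genes were the 14 of each direction that pass and have the largest interaction, with places left empty going to the smallest unadjusted p (all 28 here), up to 4 members of each list with the smallest p, and a fixed set of genes. The 40 gene lists, the members and the comparison were chosen with earlier results of these data known. Lists are described by counts and medians, with no test. Alternatives were no block, other pseudocounts, filters and scalings, no trend, weights by cell type, all 10 libraries, summed rows and each library left out.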

Additional observations from a re-analysis of the deposited data

How the results depend on the processing

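With the replicate block, libraries of the same number deviated together (r of deviations from the group means across genes 0.893 in ESCs and 0.465 in NPCs), but with 2 numbers per cell type and no such statement in the labels the numbers do not establish pairs. Without the replicate block 0 interactions passed (limma, 151 at an unadjusted p under 0.05), and 0 genes passed in NPCs and 0 in ESCs. No other setting on the 8 libraries gave an interaction past the threshold, and the fit of all 10 libraries with the block gave 6. With a library left out, the count of interactions ranged from 0 to 981, that of NPC changes from 4 to 3567 and that of ESC changes from 52 to 960. NPC changes numbered 0 without a filter on low values and 3822 with weights for each cell type. ESC changes numbered 0 without a filter, 50 without the intensity trend, 54 with weights and 825 with all 10 libraries. Of 1876 values of 100 genes over the alternatives, 25 had the other sign, in 7 genes whose interactions were all under 0.7 in size. Pou5f1 was 0.0656 after quantile normalization, Esrrb 0.106 and 0.0387 with pseudocounts of 0.1 and 0.5 and 0.0367 with rows summed, and Cbx3 -0.265 with a pseudocount of 0.1. With a library left out, the interaction ranged from -0.184 to 0.00918 for Cbx1, from -0.0771 to 1.30 for Cbx3, from -0.0168 to 0.153 for Ehmt2, from -0.0652 to 0.0495 for Esrrb, from -0.0217 to 0.919 for Krt18, from -0.149 to 0.0609 for Lefty2 and from -0.0344 to 0.0262 for Pou5f1. In 169 values a gene passed that had not passed in the fit of 8 libraries. Of the 722 values of 38 list medians, 598 moved by less than 1 SD between replicate numbers and 124 by more. This SD came from 2 values per list and is wide where the replicates disagree, so the count does not measure stability. The S100, annexin and galectin median ranged from 0.382 to 0.776. RPKM values carry no read counts, and the precision is limited by 2 libraries a group.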

Other observations

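The NPC libraries with the Med26 siRNA share their controls with the NPC Cbx3 siRNA libraries, so values are given side by side with no test. Tgm1 was at 10.4 and 11.9 RPKM after the Med26 siRNA, Ier3 at 12.7 and 12.7 RPKM, S100a6 at 49.2 and 48.6 RPKM and Acta2 at 24.1 and 22.9 RPKM. Each of these genes was thus above both its NPC controls after the Med26 siRNA too. Those controls were 5.67 and 6.43, 4.66 and 4.69, 33.1 and 33.9, and 18.7 and 18.5 RPKM. Ier3 was also above its NPC Cbx3 siRNA libraries (10.8 and 10.4 RPKM), while Tgm1, S100a6 and Acta2 were below theirs. Sox2 was at 36.7 and 38.5 RPKM, above both NPC controls (29.6 and 29.9 RPKM), and Nanog at 18.1 and 18.6 RPKM, below both (24.3 and 23.5 RPKM). Pdk1 was at 32.5 and 34.4 RPKM and Ehmt2 at 28.4 and 29.5 RPKM, each below both NPC controls. Lefty2, which rose in ESCs and NPCs after the Cbx3 siRNA, was at 14.1 and 14.7 RPKM after the Med26 siRNA, below both NPC controls (27.4 and 27.8 RPKM). Nupr1 was at 3.26 and 3.96 RPKM, below both NPC controls (5.67 and 5.49 RPKM).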
